A study of Mus musculus with 12 samples.

Results

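Whole kidneys of wild-type (WT) C57BL/6 mice were compared between 3 animals with low animal numbers (573, 590 and 601) and 3 animals with high animal numbers (776, 777 and 778). Libraries were assigned to the groups by the animal number in the sample label, which gave 6 of the 12 libraries in the series. This comparison was chosen with earlier results of these data known. The other 6 libraries come from A1cf KO (A1cf -/-) animals, 5 with low numbers (574, 584, 588, 591 and 602) and 1 with a high number (780), and took no part in the test. All animals were 6 to 8 weeks old and untreated as far as the labels say, and both WT groups carry the same genotype. The labels do not say what the animal number stands for, so nothing here ties it to a litter, cage, date or extraction. The series describes its libraries as biological replicates, without saying how the animals were housed or collected.

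Whole kidney RNA mixes many cell types. Proximal tubule cells reabsorb most of the filtrate and supply much of the RNA, while capillary endothelium, pericytes and fibroblasts, plasma cells and lining cells of the renal pelvis add smaller parts. Glucocorticoid hormone acts through a nuclear receptor that induces a set of genes in many tissues, and plasma cells secrete antibody, in mucosal immunity chiefly dimeric IgA joined by the J chain. In such samples, more cells of a type and more RNA per cell cannot be told apart.

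Total counts ran from 26671705 in animal 776 to 52156902 in animal 590 and did not separate the groups (exact two-sided permutation p = 0.3, where 3 against 3 cannot go below 0.1). A1cf, the deleted gene of the series, was at 45.9 to 66.4 CPM (counts per 1e6 counts, after scaling by the trimmed mean of M-values) with the groups overlapping (log2 fold change, high minus low number, -0.08), and the Y-linked Ddx3y, Eif2s3y, Kdm5d and Uty were present in all 6 libraries while Xist had 54 reads in total. No pair of the 15 WT pairs agreed within sampling noise (smallest chi-square per degree of freedom 24.9). The first principal component held 32.0% of the variance of log2 CPM, with its sign set so that the high-number mean was positive. On it the low-number libraries lay from -38.5 to -11.8 and the high-number libraries from 8.79 to 37.9. Its exact two-sided permutation p was 0.1, the lowest that 3 against 3 allows. Animal 777 stood apart in urothelial and fat markers and animal 573 in immediate early genes; their values are given beside the gene groups below.

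Of 17042 genes tested with edgeR's quasi-likelihood test, 120 (0.704%) passed an adjusted p of 0.05. In the high-number kidneys 101 of them (0.593%) were higher and 19 (0.111%) lower. Log2 fold changes ran from 0.51 to 2.57 among the higher genes (median 0.88), apart from Igkv6-32, which had too few reads in the low-number libraries for a fold change, and from -2.57 to -0.47 among the lower ones (median -0.78), while the median over all tested genes was -0.003. All 120 called genes had groups that did not overlap. Over all tested genes, 9.56% lay wholly higher and 8.5% wholly lower in the high-number libraries. An unadjusted edgeR p under 0.05 was found for 13.5% of them, 1305 higher and 994 lower.

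The number of calls depended on the tool and on single libraries. DESeq2 called 535 of the 15046 genes to which it gave an adjusted p (3.56%, 367 higher and 168 lower), and limma-voom called 119 (0.698%, 101 higher and 18 lower), with 113 genes called by all 3 tools. With 1 library left out, the edgeR count was 18 without 590, 23 without 776, 49 without 601, 62 without 777, 65 without 778 and 170 without 573. All 18 genes that passed without 590 were among the 120. Of the 41 called genes that the naming rule picks, 9 passed in all 15 alternatives: Igkc, Jchain, Map3k6, Rgcc, Slc7a12, Sult1a1, Ddit4, Plvap and Cyp1b1.

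**Figure D1:**
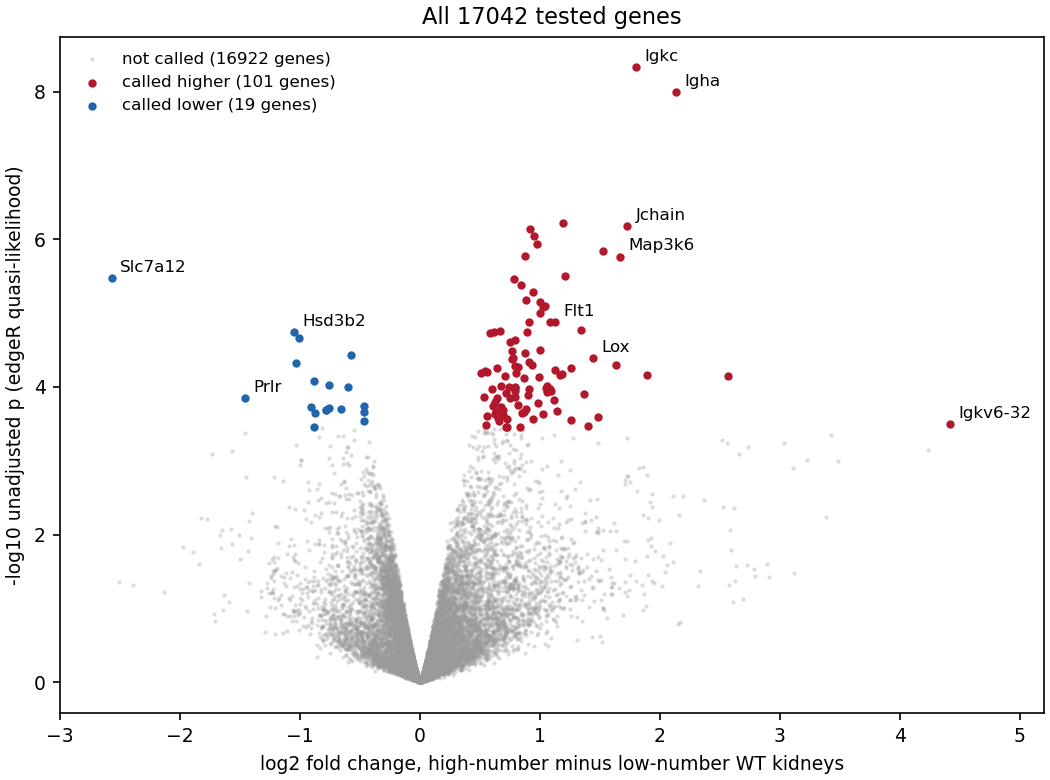
Each point is 1 of 17042 tested genes, with the log2 fold change (high-number minus low-number WT kidneys) on the horizontal axis and -log10 of the unadjusted edgeR p on the vertical axis. Red points are the 101 genes called higher and blue points the 19 called lower; Igkc and Igha have the smallest p and Slc7a12 the most negative fold change.

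Antibody transcripts showed the smallest p-values of the comparison. Igha, the constant region of the IgA heavy chain (mm10 chr12:113254830-113260236, minus strand), was at 18.6, 14.4 and 13.7 CPM in 573, 590 and 601 and at 67.6, 70.6 and 67.3 CPM in 776, 777 and 778. The high-number libraries lay close together, about 4.40-fold above the low-number ones (log2 fold change 2.14, SE 0.12, edgeR adjusted p = 8.6e-05). Igkc, the constant region of the kappa light chain (chr6:70726435-70726966, plus strand), was at 16.9, 15.9 and 14.6 CPM against 51.6, 55.7 and 58.1 CPM, a 3.49-fold difference (adjusted p = 8.0e-05 by edgeR). Jchain, the joining chain of secreted IgA and IgM (chr5:88519809-88527891, minus strand), was at 4.67, 4.13 and 3.89 CPM against 11.8, 15.8 and 14.5 CPM (3.32-fold, edgeR adjusted p = 0.0024). All 3 were called with each library left out in turn. Igha alone missed the threshold once, when the spread was taken from all 12 libraries of the series (adjusted p = 0.052 by edgeR).

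The rest of the immunoglobulin and plasma cell list did not follow as a block. Of 17 members 13 were tested, 12 had a positive fold change and 3 were called, with a list median of 0.53. The summed CPM of the 13 ran from 60.1 to 67.7 in the low-number libraries and from 160 to 180 in the high-number ones. The called Igha, Igkc and Jchain made up most of that sum in every library, so it does not describe the other members. Ighm, the IgM heavy chain, was at 6.30, 7.92 and 7.10 CPM against 6.75, 5.34 and 13.1 CPM, with the groups overlapping. The plasma cell genes Mzb1, Sdc1 and Derl3, which serve antibody folding, the cell surface and protein quality control, had fold changes of -0.06, 0.16 and 0.05 and overlapped as well. The lambda constant regions Iglc1 and Iglc2 lay wholly higher in the high-number libraries (log2 fold changes 1.71 and 1.22) without passing by edgeR, while DESeq2 also called Iglc1. The list median ranged from 0.27 without 778 to 0.97 without 601.

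Variable segments, which are joined to the constant regions during B cell development, were looked at after the calls were seen. The filter on low counts left 28 of them, and 2 were called. A segment with almost no reads in the low-number libraries can pass that filter only through the libraries where it is high, so no sign count or median is given for them. Igkv10-96 was at 0.16, 0.39 and 0.37 CPM against 1.34, 1.93 and 2.15 CPM (log2 fold change 2.57, SE 0.39, edgeR adjusted p = 0.021), a call lost without 590, 601, 776, 777 or 778. Igkv6-32 had 2, 0 and 0 reads against 11, 16 and 15 reads, too few for a fold change. Segments of this family resemble one another, so single reads may be split between them. Lymphocyte markers were not called by edgeR, DESeq2 or limma-voom in any of 18 tested genes (14 positive, 3 with an unadjusted edgeR p under 0.05), and their summed CPM of 9.79 to 15.2 overlapped 13.6 to 17.7. In the opposite direction, Pigr, the receptor that carries IgA across epithelia (chr1:130826684-130852249, plus strand), was at 298, 367 and 407 CPM against 146, 206 and 171 CPM (log2 fold change -1.03, SE 0.15, edgeR adjusted p = 0.0195). The Pigr call was lost without 590, 601, 776 or 778.

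Endothelial genes formed the list with the most calls. Of 19 members, all tested, 18 had a positive fold change, 9 were called higher and 0 lower, and the list median was 0.72. DESeq2 called 15 and limma-voom 9. For this and the other lists, the share called higher by edgeR over all tested genes was 0.593%, and the share called lower 0.111%. Of the 19, 15 lay wholly higher in the high-number libraries, against 9.56% of all tested genes. Plvap, which forms the diaphragms of capillary openings (chr8:71497754-71511769, minus strand), was at 67.6, 53.8 and 60.0 CPM against 115, 115 and 104 CPM (log2 fold change 0.88, SE 0.10, edgeR adjusted p = 0.0070). Flt1, a receptor for vascular endothelial growth factor (chr5:147561604-147726011, minus strand), was at 32.7, 26.1 and 25.0 CPM against 71.0, 60.8 and 51.5 CPM (log2 fold change 1.13, SE 0.14, adjusted p = 0.0099 by edgeR). The high-number libraries were above every low-number library for both genes. Esam, an endothelial adhesion molecule, was at 23.8 ± 1.20 CPM (SD, n = 3) against 37.9 ± 1.71 CPM, and Eng, a coreceptor for transforming growth factor beta, at 49.6 ± 2.92 against 76.2 ± 2.45 CPM (both edgeR adjusted p = 0.011).

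The other called members were Cdh5, the endothelial cadherin (13.7 to 23.6 CPM in group means), Tie1, a receptor tyrosine kinase (22.5 to 35.4 CPM), Emcn, a surface sialomucin (31.4 to 57.8 CPM), Ehd3, a membrane trafficking protein (15.6 to 26.4 CPM), and Nos3, the endothelial nitric oxide synthase (3.47 to 7.22 CPM). Pecam1, Tek, Robo4, Egfl7, Ramp2 and Sox17 lay wholly higher without passing by edgeR, with log2 fold changes from 0.57 to 0.83. Kdr, Vwf, Aqp7 and the lymphatic marker Lyve1 overlapped between the groups. Outside the list, and picked after their values were seen, the called genes included further ones known from endothelium: Notch4 (15.7 to 30.7 CPM), Sox18 (2.72 to 5.67 CPM), Gpihbp1 (8.70 to 17.3 CPM), Cd93 (17.8 to 29.4 CPM) and Cd34 (14.8 to 22.8 CPM).

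The count of called endothelial genes moved with single libraries, the fold changes less so. It was 1 without 590 (Plvap), 2 without 776, 3 without 601, 5 without 777, 6 without 778 and 14 without 573. The list median stayed between 0.64 and 0.79 over these 6 settings. The call of Flt1 was lost without 590 (edgeR adjusted p = 0.064), that of Esam without 590 or 776, and that of Eng without 590, 601 or 776. The summed CPM of the list was 462, 370 and 382 in 573, 590 and 601 and 690, 697 and 625 in 776, 777 and 778. Eng shares up to 61 bases of exon with Fpgs and Nos3 up to 294 with Atg9b, both on the opposite strand, and the counting used no strand option.

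**Figure D2:**
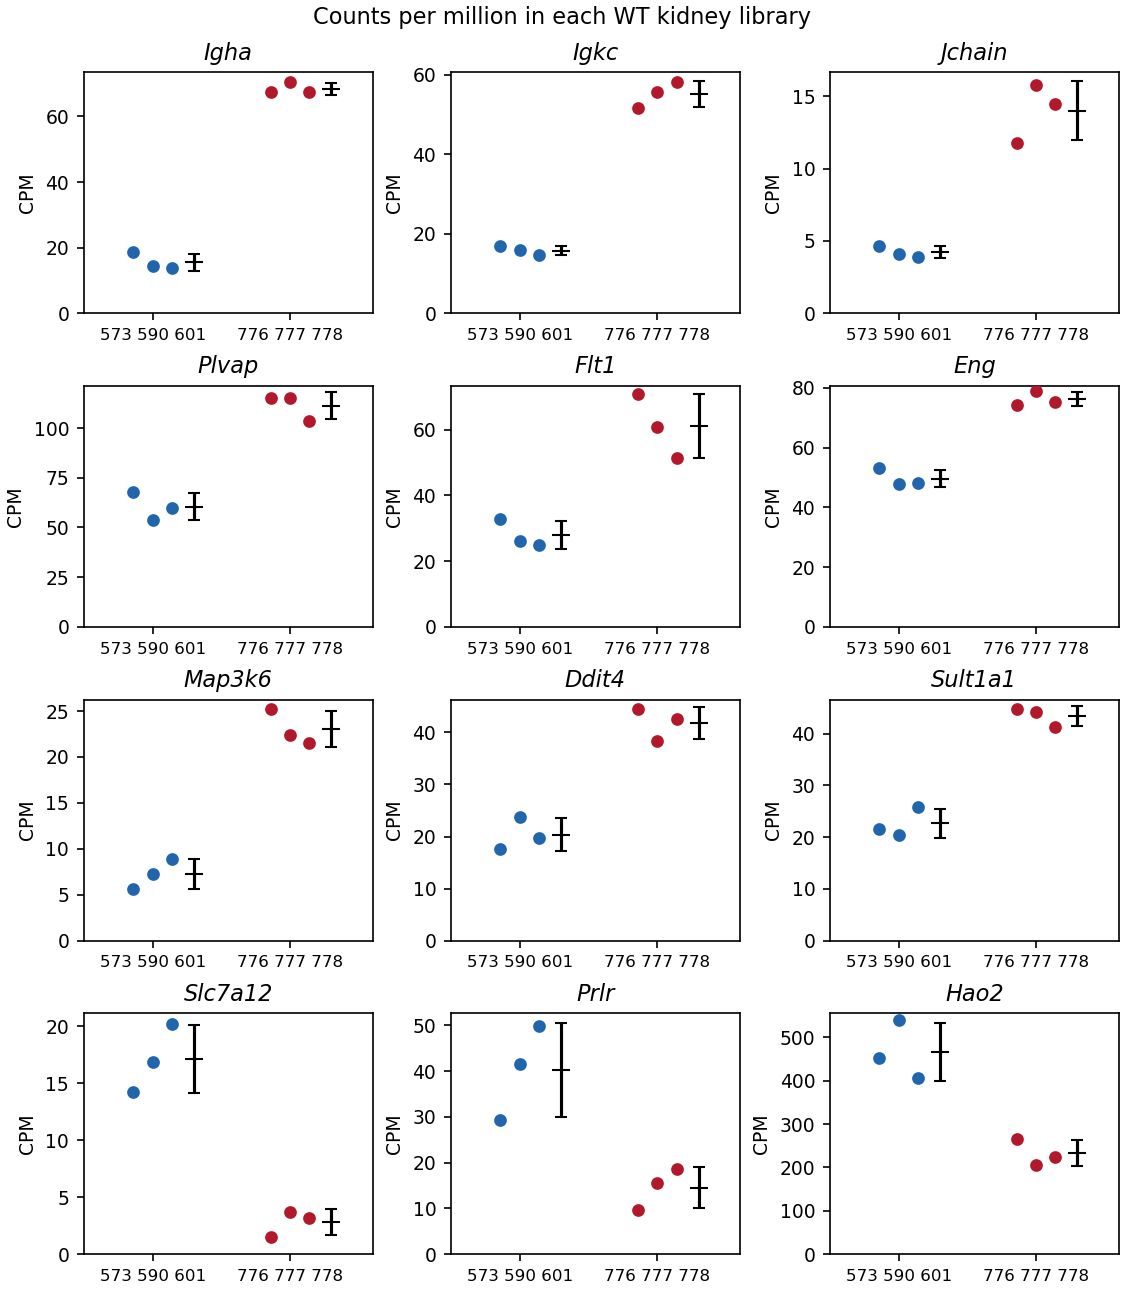
Each panel shows 1 called gene, with TMM-scaled CPM on the vertical axis from 0 and the 6 WT libraries by animal number on the horizontal axis. Points are libraries (blue low numbers, red high numbers) and black marks the mean ± SD of 3 libraries; in all 12 panels the groups do not overlap.

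Promoters were searched for the 4 lists with at least 3 called members, taking up to 4 called members of each by smallest p. Sequences are printed only from the endothelial and glucocorticoid-responsive lists, which hold 9 and 4 called members, all of them higher. Entries for 10 of the 15 genes that the rule picks were found among RefSeq promoters (GRCm38.p6), and 250 bases before the start site were searched on both strands. For endothelium the motif AGGAAG, a core bound by ETS family factors, was chosen after the calls were seen. It was in the promoters of both Flt1 and Eng, and in 28.4% of the 11722 promoters of tested genes. Plvap and Esam had no entry, and the other called endothelial genes were not searched. Capitals mark the motif or its reverse complement. The windows are chr5:147726012-147726261 (minus strand) for Flt1 and chr2:32646345-32646594 (plus strand) for Eng.
Flt1: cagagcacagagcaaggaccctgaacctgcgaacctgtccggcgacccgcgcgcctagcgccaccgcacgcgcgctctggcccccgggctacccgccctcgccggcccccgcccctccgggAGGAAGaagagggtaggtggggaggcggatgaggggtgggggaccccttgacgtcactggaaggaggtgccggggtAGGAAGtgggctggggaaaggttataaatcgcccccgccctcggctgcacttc
Eng: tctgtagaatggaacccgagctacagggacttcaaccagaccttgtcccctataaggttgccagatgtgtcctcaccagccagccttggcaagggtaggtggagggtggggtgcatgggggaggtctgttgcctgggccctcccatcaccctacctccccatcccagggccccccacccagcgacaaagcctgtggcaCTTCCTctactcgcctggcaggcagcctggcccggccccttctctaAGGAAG
In both genes 2 matches lay in the window, in Flt1 starting 129 and 53 bases before the start site and in Eng 52 and 6 bases before it. Of the 10 windows searched, CCAAT was in those of Sult1a1, Ddit4, Hif3a and Rgs5, and in 35.7% of all promoters. TTTGAA was in those of Sult1a1, Pdgfra and Jchain, and in 10.9% of all promoters. Neither was in the windows of Flt1 and Eng.

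Pericyte, fibroblast and smooth muscle markers split. Of 18 members 17 were tested, 14 had a positive fold change and 4 were called higher, with a list median of 0.23. Of the 17, 7 lay wholly higher and 1 wholly lower, against 9.56% and 8.5% of all tested genes. At an unadjusted edgeR p under 0.05, 6 were higher and 1 lower, and the lowest log2 fold change was -0.52. Pdgfra, a receptor for platelet-derived growth factor on fibroblasts, was at 27.8, 24.9 and 22.3 CPM against 43.4, 55.8 and 41.5 CPM (log2 fold change 0.91, SE 0.13, edgeR adjusted p = 0.0195). Rgs5, a pericyte regulator of G-protein signalling, was at 39.2 ± 1.75 against 57.1 ± 2.90 CPM (edgeR adjusted p = 0.021). Pdgfrb, the pericyte receptor, was at 28.8 ± 2.29 against 41.7 ± 1.23 CPM, and Des, the intermediate filament desmin, at 10.1 ± 0.99 against 15.9 ± 1.13 CPM (edgeR adjusted p = 0.0295 and 0.044). The contractile genes Acta2, Myh11, Myl9 and Lmod1 overlapped between groups, with log2 fold changes of 0.11, 0.36, 0.002 and 0.19. Calls in the list were 0 without 590, 601 or 776, 1 without 778, 2 without 777 and 3 without 573. DESeq2 and limma-voom each called 4.

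Extracellular matrix genes had 20 of 28 positive fold changes (median 0.26) and 1 edgeR call, Lox, an enzyme that crosslinks collagen and elastin (3.30, 4.33 and 3.69 CPM against 12.5, 10.7 and 7.61 CPM, edgeR adjusted p = 0.018). DESeq2 called 7. The Lox call was lost without 590, 601 or 776, and the list median was 0.07 without 573. Podocyte markers had 10 of 13 positive fold changes (median 0.23) with 0 called by edgeR (4 with an unadjusted p under 0.05), 0 by limma-voom and 2 by DESeq2 (Synpo and Cdkn1c). Macrophage markers were centred near 0 (median 0.03, 13 of 20 positive), with 0 called by any of the 3 tools and 1 at an unadjusted edgeR p under 0.05.

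Urothelial and fat markers had the highest list medians without a call, and both rested on animal 777. The 16 tested urothelial genes all had a positive fold change (median 1.61), with 6 at an unadjusted p under 0.05 and 0 called by edgeR, DESeq2 or limma-voom. Their summed CPM was 308 in 777 and 107 to 144 in the other 5 libraries. Upk1b, a uroplakin of the bladder and pelvis lining, was at 17.1 CPM in 777 and 0.75 to 2.88 CPM elsewhere. Fat genes had a median of 1.06 (14 of 16 positive, 8 at an unadjusted p under 0.05, 0 called by edgeR or limma-voom, Lipe by DESeq2) and a summed CPM of 2286 in 777 against 1328 to 1492. Cfd, a complement factor secreted by fat, was at 177 CPM in 777, 42.6 in 776 and 6.24 to 24.6 in the rest. Without 777 the medians were 0.08 for urothelium and 0.09 for fat, whereas the endothelial median was 0.64. The adrenal gland lies on the kidney, and 12 of its 15 markers had too few reads to be tested. Over the 6 libraries together Cyp11b2, Nr5a1, Th, Dbh and Pnmt had 0 reads, Cyp11b1 3, Chga 4, Cyp21a1 6, Cyp11a1 21, Chgb 21, Mc2r 30 and Hsd3b1 34. The other 3 were tested (Star, Cyp17a1 and Akr1b7), with 0 called by any tool and 0 at an unadjusted edgeR p under 0.05.

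**Figure D3:**
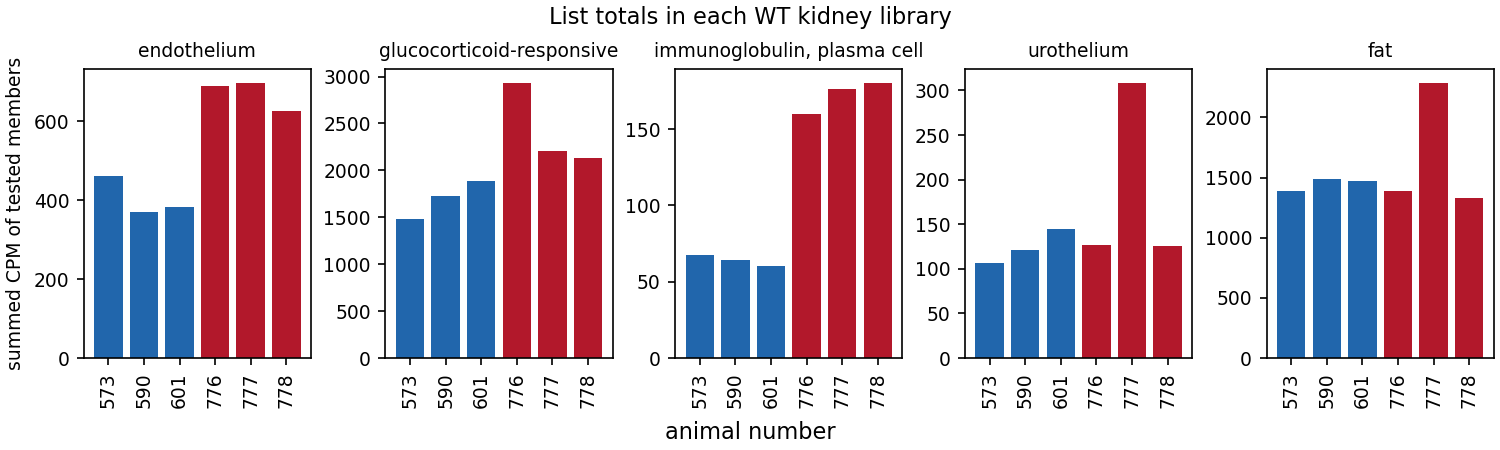
Bars give the summed CPM of the tested members of 5 gene lists in each WT library, from 0, by animal number (blue low, red high). The endothelial and immunoglobulin sums are above all low-number libraries in each of 776, 777 and 778, while the urothelial and fat sums are high in 777 alone. Most of the immunoglobulin sum comes from Igha, Igkc and Jchain.

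Of 18 genes induced by glucocorticoids, 17 were tested and 4 were called higher by edgeR, 6 by DESeq2 and 5 by limma-voom. All 17 had a positive fold change (median 0.69), and 10 lay wholly higher in the high-number libraries. Over all tested genes, 9.56% lay wholly higher. This list, like the others, was chosen with earlier results of these data known, so its counts carry no test. Map3k6, a stress-activated protein kinase (chr4:133240818-133252929, plus strand), was at 5.65, 7.24 and 8.92 CPM against 25.3, 22.4 and 21.6 CPM (3.17-fold, log2 fold change 1.67, SE 0.16, edgeR adjusted p = 0.0029). Ddit4, an inhibitor of mTORC1 signalling (chr10:59949675-59951770, minus strand), was at 17.5, 23.8 and 19.7 CPM against 44.4, 38.4 and 42.7 CPM (2.06-fold, edgeR adjusted p = 0.0075). In both, each high-number library exceeded each low-number library. Ddit4 was also the 1 called member of 18 hypoxia genes. Sult1a1, a phenol sulfotransferase (chr7:126672865-126676432, minus strand), was at 22.7 ± 2.83 against 43.4 ± 1.93 CPM (edgeR adjusted p = 0.0059), and Hif3a, a member of the hypoxia-inducible factor family (chr7:17031507-17062427, minus strand), at 2.90 ± 0.95 against 8.99 ± 0.52 CPM (edgeR adjusted p = 0.020).

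Other well known targets of the receptor did not pass by edgeR. Fkbp5, a chaperone partner of the receptor, was at 131, 121 and 163 CPM against 254, 220 and 200 CPM (log2 fold change 0.70, edgeR adjusted p = 0.0505), and limma-voom and DESeq2 called it. Tsc22d3, also called GILZ, was at 40.9, 101 and 112 CPM against 126, 151 and 133 CPM. Zbtb16, a zinc finger repressor, was at 7.99, 6.02 and 20.9 CPM against 47.8, 47.6 and 28.1 CPM, and Cdkn1a, a cell cycle inhibitor, at 7.07, 16.6 and 10.2 against 42.8, 26.2 and 26.3 CPM (edgeR adjusted p = 0.092 and 0.061). These 4 genes lay wholly higher in the high-number libraries. The clock gene Per1, at 76.5, 104 and 101 CPM against 96.8, 110 and 108 CPM, and Sgk1, an ion transport kinase, at 35.7, 223 and 155 CPM against 256, 161 and 119 CPM, overlapped between the groups.

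Map3k6, Sult1a1 and Ddit4 were called in all 15 alternatives, with a highest edgeR adjusted p of 0.049 for Ddit4. Hif3a lost its call without 590, 776 or 778. Calls in the list ranged from 3 (without 590, 776 or 778) to 6 (without 601), and the median from 0.57 (without 573) to 0.91 (without 601). Sult1a1 shares up to 61 bases of exon with Ccdc101 on the opposite strand. The motif AGAACA, a core element bound by the glucocorticoid receptor, was also chosen after the calls were seen. It was in the windows of 1 of the 4 called genes, Sult1a1 (chr7:126676419-126676668, minus strand), and in 11.2% of all promoters. Map3k6 (chr4:133240568-133240817, plus strand) is shown as the called gene of the list with the smallest p.
Sult1a1: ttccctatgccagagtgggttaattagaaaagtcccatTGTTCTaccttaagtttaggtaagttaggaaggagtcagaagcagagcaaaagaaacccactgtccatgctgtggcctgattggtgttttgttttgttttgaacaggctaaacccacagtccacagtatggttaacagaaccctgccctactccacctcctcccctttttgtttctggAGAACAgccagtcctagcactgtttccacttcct
Map3k6: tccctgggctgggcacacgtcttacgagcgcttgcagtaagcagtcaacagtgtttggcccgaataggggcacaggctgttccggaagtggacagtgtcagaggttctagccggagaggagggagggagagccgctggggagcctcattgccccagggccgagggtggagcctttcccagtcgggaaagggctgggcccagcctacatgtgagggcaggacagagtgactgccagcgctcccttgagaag
Capitals mark AGAACA and its reverse complement, which start 34 and 212 bases before the start site of Sult1a1. Map3k6, Ddit4 and Hif3a had 0 matches in their windows, which says nothing of sites elsewhere.

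Stress and early response genes beyond this list gave few calls. Of 27 tested immediate early genes 2 were called higher, Klf2, a flow-responsive transcription factor (7.72 ± 0.75 to 14.8 ± 1.82 CPM), and Ctgf, a matricellular growth factor (51.7 ± 1.70 to 78.2 ± 8.94 CPM), with edgeR adjusted p = 0.020 and 0.026. Both calls were lost without 590, 601, 776 or 778. The canonical members were set by animal 573, in which Fos was at 17.1 CPM against 0.55 to 1.57 CPM in the other 5 libraries and Egr1 at 66.6 CPM against 3.18 to 7.98 CPM. The median of the list was -0.04 with 573 and 0.50 without it, when 5 members were called. Of 22 genes regulated by the oxidant sensor NRF2, 2 were called higher, Hmox1, which degrades heme (41.2 ± 6.58 to 66.6 ± 5.82 CPM), and Cbr3, a carbonyl reductase (2.73 ± 0.63 to 6.54 ± 1.32 CPM), with edgeR adjusted p = 0.036 and 0.044. Chac1, which degrades glutathione, was at 0.61, 0.43 and 0.69 CPM against 2.39, 2.23 and 1.84 CPM (edgeR adjusted p = 0.021) and was the 1 called member of 22 unfolded protein response genes. All 3 calls were lost without 590, 776 or 778, those of Cbr3 and Chac1 also without 601, those of Hmox1 and Chac1 also without 777, and that of Hmox1 also without 573.

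Other genes with large positive fold changes came from no common list. Cyp1b1, a cytochrome P450 of steroids and xenobiotics, was at 18.6, 19.7 and 19.3 CPM against 38.1, 38.5 and 34.6 CPM (log2 fold change 0.95, SE 0.09, edgeR adjusted p = 0.0026). Rgcc, a regulator of the cell cycle, was at 7.69, 6.98 and 9.98 CPM against 26.1, 22.2 and 22.7 CPM (log2 fold change 1.53, SE 0.15, edgeR adjusted p = 0.0029). Both were called with each library left out. Thrsp, a lipogenic regulator (3.34 ± 1.10 to 8.80 ± 1.78 CPM), Kcnip3, a calcium-binding channel partner (2.35 ± 0.39 to 6.05 ± 1.41 CPM), and Rnf144b, a ubiquitin ligase (2.18 ± 0.05 to 6.06 ± 2.37 CPM), had edgeR adjusted p = 0.0496, 0.028 and 0.041. Their calls were lost without at least 5 of the 6 libraries in turn. Plat, the tissue plasminogen activator (22.6 ± 1.14 to 42.4 ± 8.99 CPM), was the 1 called complement and coagulation gene of 22. Ptger3, a prostaglandin E2 receptor of the thick limb (20.7 ± 1.07 to 32.0 ± 4.14 CPM), was the 1 called loop of Henle marker of 17, with edgeR adjusted p = 0.026 and 0.038. The Plat call was lost without 590, 601, 776 or 777, and that of Ptger3 without any library but 778. In the loop of Henle list 13 of 17 fold changes were positive (median 0.33, and 0.15 without 777). Of its members 7 lay wholly higher and 1 wholly lower, against 9.56% and 8.5% of all tested genes. At an unadjusted edgeR p under 0.05, 7 were higher and 1 lower, against 1305 and 994 of all 17042.

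Among the 19 lower genes, Slc7a12 had the most negative fold change. This member of the heteromeric amino acid transporter family (chr3:14480697-14505830, plus strand) was at 14.2, 16.9 and 20.2 CPM against 1.53, 3.71 and 3.18 CPM, 5.94-fold lower in the high-number kidneys (log2 fold change -2.57, SE 0.27, edgeR adjusted p = 0.0046). It was the only lower call that remained without 590. Prlr, the prolactin receptor (chr15:10177238-10349180, plus strand), was at 29.4, 41.6 and 49.9 CPM against 9.66, 15.5 and 18.5 CPM (log2 fold change -1.46, SE 0.24, edgeR adjusted p = 0.0295). Hsd3b2, of the hydroxysteroid dehydrogenase family (chr3:98709255-98724543, minus strand), was at 91.3, 101 and 77.5 CPM against 38.7, 39.8 and 51.6 CPM (log2 fold change -1.05, edgeR adjusted p = 0.011). Hao2, a peroxisomal hydroxyacid oxidase (chr3:98874521-98893239, minus strand), was at 453, 539 and 406 CPM against 265, 207 and 225 CPM (2.01-fold lower, edgeR adjusted p = 0.012). The Prlr call was lost without 590, 601, 776, 777 or 778, that of Hsd3b2 without 590 or 776, and that of Hao2 without 590 or 778. Near-identical relatives of Hsd3b2 and Selenbp2 exist, so that reads could be divided among copies, and Hsd3b2 shares up to 99 bases of exon with Zfp697.

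The remaining lower genes with the most negative fold changes were Selenbp2, a selenium-binding protein (29.7 to 15.8 CPM in group means), Cyp2c44, an epoxygenase of the P450 family (37.8 to 20.5 CPM), Acmsd, a decarboxylase of tryptophan breakdown (47.1 to 25.7 CPM), Pcdh17, a protocadherin (log2 fold change -0.78), Slc9a8, a sodium-proton exchanger (166 to 96.3 CPM), Rgag4 (13.9 to 8.24 CPM) and Slc22a22, an organic anion transporter (94.7 to 56.0 CPM). Their log2 fold changes ran from -0.91 to -0.75. Each of these 7 calls was lost without 590, without 601 and without 776. Of 20 androgen-responsive genes 14 were negative (median -0.18), and Prlr and Hsd3b2 were the 2 called. Over all tested genes 0.111% were called lower. In that list 4 lay wholly lower and 3 wholly higher, against 8.5% and 9.56% of all tested genes. At an unadjusted edgeR p under 0.05, 5 of its members were lower and 3 higher.

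Proximal tubule genes gave few calls. In the cortical proximal tubule list 17 of 20 fold changes were negative (median -0.26), with 0 called by edgeR (8 lower at an unadjusted p under 0.05) or limma-voom and 5 by DESeq2 (Slc34a1, Gatm, Pdzk1, Miox and Ass1). Of the 20, 7 lay wholly lower and 0 wholly higher, against 8.5% and 9.56% of all tested genes. Gatm, the first enzyme of creatine synthesis, was at 241, 488 and 515 CPM against 191, 111 and 150 CPM (log2 fold change -1.46, edgeR adjusted p = 0.053). Miox, the inositol oxygenase, was at 1467, 2106 and 2018 CPM against 1179, 1091 and 1345 CPM (edgeR adjusted p = 0.11). Slc34a1, the main sodium phosphate cotransporter, was at 4212, 6414 and 4973 CPM against 3315, 3091 and 3743 CPM (edgeR adjusted p = 0.14). All 3 lay wholly lower in the high-number libraries. Without 573, 3 members of the list were called lower. In the list of the S3 segment of the proximal tubule, 11 of 15 fold changes were negative (median -0.20), with Slc7a12 as the 1 edgeR call. At an unadjusted edgeR p under 0.05, 3 of the 15 were lower and 2 higher. Amino acid catabolism genes had 21 of 25 negative fold changes (median -0.30), Hao2 as the 1 call and 12 lower at an unadjusted p under 0.05, and DESeq2 called 6.

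Some lists had small fold changes of 1 sign in nearly every member, with few or no members passing. All 47 nuclear genes of oxidative phosphorylation had a negative fold change (median -0.16, lowest -0.32), with 0 called by any of the 3 tools and 0 at an unadjusted edgeR p under 0.05. The groups overlapped for 44 of the 47, and 3 lay wholly lower, against 8.5% of all tested genes. Cell cycle genes were negative in 28 of 29 (median -0.32), again with 0 called by any tool and 2 at an unadjusted edgeR p under 0.05, and the median was -0.10 without 590 and -0.54 without 573. Sterol synthesis genes were negative in 19 of 21 (median -0.23), with 0 called by edgeR (8 lower at an unadjusted p under 0.05) or limma-voom and 3 lower by DESeq2. Members of such lists vary together between animals, so a count of signs carries no test here.

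Of 55 lists in all, 4 had at least 3 called members, 12 had 1 or 2 and 39 had none. Core clock genes were among the latter (19 tested, median -0.02, 4 lower at an unadjusted edgeR p under 0.05, 0 called by any tool). In that list Bhlhe40, a clock repressor, was at 181, 107 and 93.6 CPM against 66.1, 76.9 and 56.4 CPM (edgeR adjusted p = 0.11). Transcripts of the mitochondrial genome were called in 0 of 13 by any tool (median 0.14, 0 at an unadjusted edgeR p under 0.05). Of 8 tested genes known to differ between C57BL/6 substrains, 0 were called by any tool (1 at an unadjusted edgeR p under 0.05), and Nnt, the mitochondrial transhydrogenase, was at 126 to 147 CPM against 123 to 130 CPM.

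**Figure D4:**
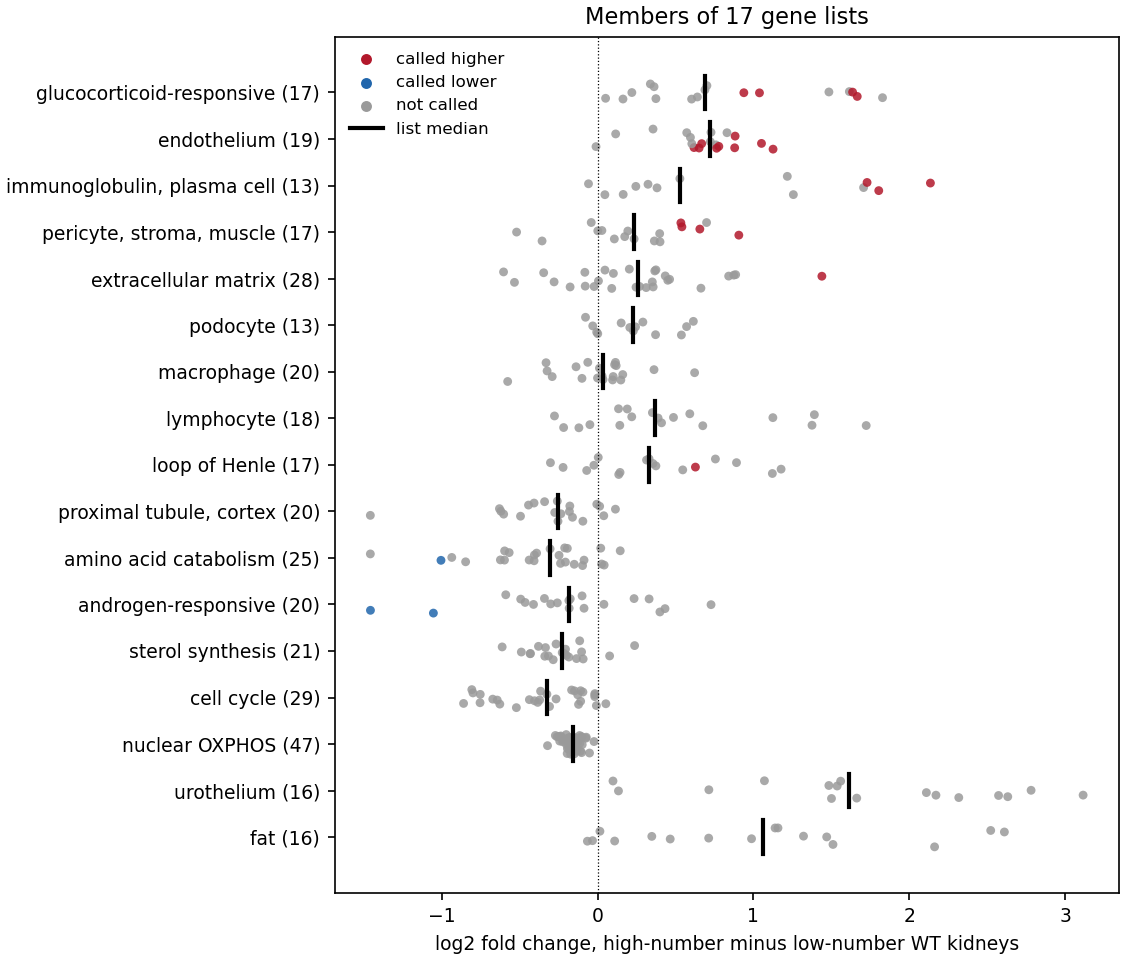
Each point is a tested member of 1 of 17 gene lists (number tested in parentheses), placed by its log2 fold change, high-number minus low-number WT kidneys. Red points were called higher, blue lower and grey not called, and black bars are list medians; the endothelial (0.72) and glucocorticoid (0.69) medians lie right of 0 with called members, and the urothelial (1.61) and fat (1.06) medians have none.

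The A1cf KO libraries, which the comparison did not use, hold 1 high-number animal, 780, and 5 low-number animals. They allow a description and no test. Of the 101 genes called higher in WT, 780 was above all 5 low-number A1cf KO animals for 93, below all 5 for 0 and within their range for 8. Over all 17042 tested genes, 780 was above all 5 for 20.7% and below all 5 for 20.6%. Of the 19 genes called lower in WT, 780 was below all 5 for 9, above all 5 for 0 and within the range for 10. The median log2 difference of 780 from the other 5 was 0.79 for the higher genes, -0.31 for the lower genes and 0.002 over all tested genes.

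By gene, Flt1 was at 64.0 CPM in 780 and 34.6 to 38.5 CPM in the 5 low-number A1cf KO animals. Map3k6 was at 26.4 CPM in 780 against 7.19 to 13.1 CPM, and Ddit4 at 55.8 against 24.9 to 33.7 CPM. In each of these 3 genes 780 lay above all 5 of the others. Igha was at 92.1 CPM in 780 and spread from 5.83 to 44.5 CPM in the other 5, a wider range than the 13.7 to 18.6 CPM of the low-number WT animals. Slc7a12 was at 2.59 CPM in 780 and 6.03 to 18.8 CPM in the others. Prlr was at 2.997 CPM in 780 against 6.38 to 20.1 CPM, so that the low-number A1cf KO animals lay below the low-number WT animals (29.4 to 49.9 CPM). Pigr (360 CPM in 780, 313 to 506 CPM in the others) and Hsd3b2 (61.1 CPM in 780, 58.8 to 152 CPM in the others) did not place 780 outside the range. With 1 library, what is particular to animal 780 and what goes with its number cannot be told apart.

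**Figure D5:**
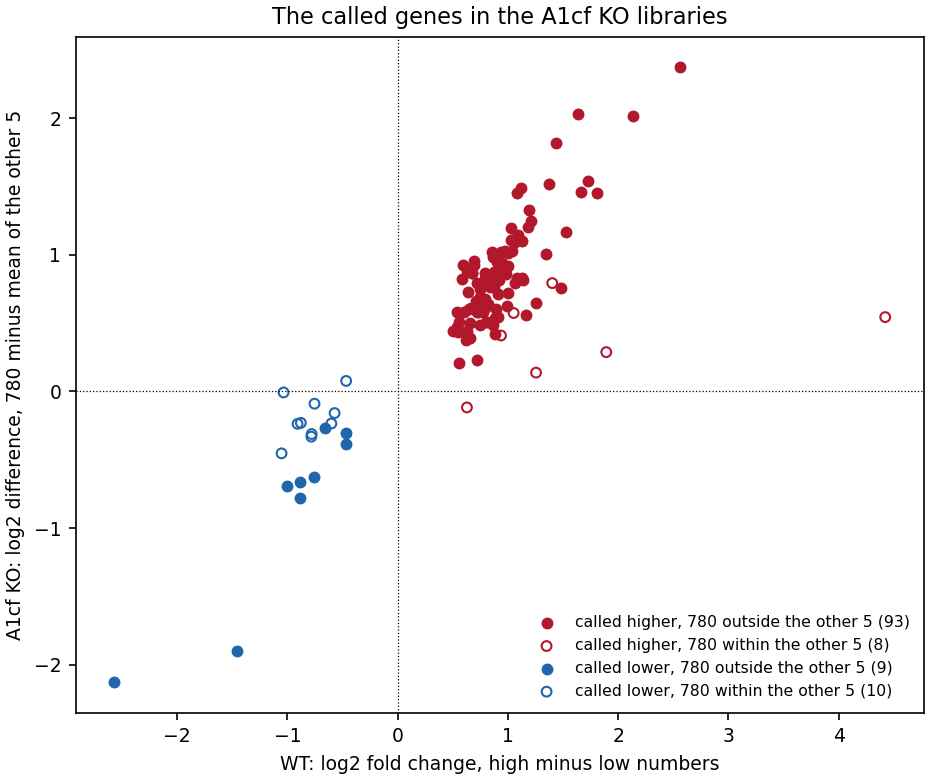
Each point is 1 of the 120 genes called in WT, with the WT log2 fold change (high minus low animal numbers) on the horizontal axis and the log2 difference of A1cf KO 780 from the mean of the 5 low-number A1cf KO libraries on the vertical axis. Filled points mark the 93 higher and 9 lower genes for which 780 lay outside the other 5 on the same side as in WT.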

How the data were processed

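Whole kidney RNA of 6 WT and 6 A1cf KO mice was sequenced, and the authors deposited 1 table of raw counts per gene for the 12 libraries. Per the file headers, reads were counted with featureCounts 1.5.0-p2 over GENCODE M8 exons grouped by gene name, with no strand, pair or duplicate option in the command. The submitters' processing notes name STAR, DESeq2 and mm10. The table also holds an exon length per gene (another unit, deposited by the authors), used only to describe genes.

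Of 46882 genes, 19583 had no read in the 6 WT libraries and 17042 passed filterByExpr. The main test was edgeR 4.0.16's quasi-likelihood test with TMM scaling on the 6 WT libraries, without covariates, with Benjamini-Hochberg adjustment over all 17042 genes and a threshold of 0.05. Fold changes are log2, high minus low number. The SE was derived from the F statistic of the same test, as the absolute log2 fold change over the square root of F. Log2 CPM used a prior count of 2. The common biological coefficient of variation was 15.6%. CPM of A1cf KO libraries were scaled apart from WT, so levels set across the genotypes are approximate. DESeq2 1.42.0, limma 3.58.1 (voom), 2 other scalings, 2 other filters, a robust fit, spread from 12 libraries, leaving out mitochondrial genes and leaving out each library were alternatives. Counts for this comparison were simulated from the spread fitted to each gene (16752 genes tested, 100 changed by each size). All changed genes had a mean of at least 1 CPM, so recovery below that level was not measured. Of genes changed 1.5-fold 50% were recovered, and of those changed 2-fold 80%. False calls were 15 of 145, a share above the threshold of 0.05.

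The members and gene lists were chosen with earlier results of these data known. Genes were named by rule: up to 12 highest and 12 lowest called genes with a mean of at least 1 CPM, and up to 4 called members per list, or 2 by smallest p where none was called. Other names are marked as chosen after their values were seen, or are members given to describe their list. The p-values of genes set the difference between the groups against the spread between animals within each group. They do not cover anything else that differed between the groups.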

Additional observations from a re-analysis of the deposited data

Results flagged for a closer look

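In 19 called genes the 6 A1cf KO libraries were searched for a library far from the rest, by the gap to its nearest neighbour over the whole range against Dixon's critical value for 6 libraries. Chance flags about 1 in 20 such groups, and 9 genes had such a library. In 7 of them it was 780, the only high-number A1cf KO animal: Map3k6 (26.4 CPM), Sult1a1 (46.2 CPM), Ddit4 (55.8 CPM), Flt1 (64.0 CPM), Rgs5 (80.2 CPM), Igkc (75.0 CPM) and Jchain (20.9 CPM). The genes share that library, so these are not separate events. In Hsd3b2 it was 602 (152 CPM) and in Pigr 574 (506 CPM), both of them low-number animals.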

How the results depend on the processing

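Of the 15 alternatives, other scalings, the stricter filter, limma-voom, spread from 12 libraries and leaving out mitochondrial genes kept all 3 counts of called genes within 1.5 times. The genes behind the counts changed, and named calls lost in some of these settings are listed above. The robust fit called 29 lower genes. Without a filter on low counts, 691 genes were called (475 higher, 216 lower), and DESeq2 called 535 (367 higher, 168 lower). With 1 library left out, the count ran from 18 (without 590) to 170 (without 573) in all, from 17 to 125 for higher genes and from 1 to 45 for lower genes. The cause of these shifts was not tested. All named called genes kept their direction. The sign turned for 3 genes that were not called: Mbp (-0.0188 without 777), A1cf (0.0502 without 601) and Ddx3y (-0.0266 without 590, and also below 0 without 601). With each library left out in turn, the log2 fold change ran from -0.0188 to 0.347 for Mbp, from -0.211 to 0.0502 for A1cf and from -0.0266 to 0.282 for Ddx3y. No paired analysis was possible because the groups share no animal number. How the detection of a difference depends on expression level was not measured, and the animal number series cannot be told apart from anything else that differed between the groups.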
